A study of Saccharomyces cerevisiae with 119 samples.

Results

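The genes described here are the 9 genes for subunits of RNA polymerase I that are absent from RNA polymerase II (*RPA190*, YOR341W; *RPA135*, YPR010C; *RPA49*, YNL248C; *RPA34*, YJL148W; *RPA43*, YOR340C; *RPA14*, YDR156W; *RPA12*, YJR063W; *RPC40*, YPR110C; *RPC19*, YNL113W) and *RRN3* (YKL125W), which encodes the initiation factor that bridges the polymerase to its promoter. They were chosen by name, for what their products do, and make up 10 of the 6685 genes counted. All 10 passed the filter on low counts in both experiments. The study measured polyadenylated RNA in *Saccharomyces cerevisiae* cultures after a mild ethanol or salt stress, to ask how the expression responses that accompany acquired stress resistance differ between strains and which transcription factors they depend on. Polyadenylated RNA excludes the ribosomal RNA that RNA polymerase I makes, so the values concern the mRNAs for the enzyme and not its output.

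In the strain experiment, cultures received 5% (v/v) ethanol for 30 min, 0.4 M NaCl for 45 min, or no stress. The 8 diploid strains were DBY8268 (derived from the laboratory strain S288c), YJM1129 (from a distillery fermentation), M1 and M22 (vineyard), Y10 (coconut), YPS163 and YPS606 (oak exudate) and YJM308 (a clinical isolate). Each strain and condition had 3 libraries, except that Y10 with ethanol had 2, which gives 71 libraries. In the mutant experiment, the same stresses were given to 3 homozygous deletion mutants made in YPS606, *msn2*Δ *msn4*Δ, *skn7*Δ and *yap1*Δ, and to wild-type YPS606, with 4 libraries for each genotype and condition (48 libraries). *MSN2* and *MSN4* encode the general stress activators, *SKN7* and *YAP1* encode activators of the oxidative stress response, and each gene was replaced by a drug-resistance cassette. Each culture was sampled unstressed and then split between both stresses, so the ethanol and salt responses of a culture share their unstressed library.

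RNA polymerase I transcribes the rDNA repeats into the 35S precursor of the large ribosomal RNAs, and in growing yeast this accounts for most transcription in the cell. Rpa190p and Rpa135p form the catalytic centre. Rpa49p and Rpa34p form a TFIIF-like heterodimer, Rpa43p and Rpa14p form the stalk to which Rrn3p binds, and Rpa12p is needed for RNA cleavage and termination. Rpc40p and Rpc19p are assembly subunits that RNA polymerase III also contains. The genes belong to the ribosome biogenesis regulon, which is repressed when growth slows. Many promoters of that regulon hold PAC (polymerase A and C) elements, bound by the repressors Dot6p and Tod6p, and RRPE elements, bound by Stb3p.

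The promoters are shown for the PAC and RRPE cores, which most but not all of these genes hold, and whether the cores bear on the responses was not tested. In the 300 bases before each start codon, 9 of the 10 genes held the PAC core GATGAG on either strand, against 19.1% of all 6001 protein-coding genes scanned. The RRPE core AAAATTTT was in 8 of 10, against 9.42%, and both cores were in 8 of 10, against 4.45%. The longer forms GCGATGAG and AAAAATTTT were in 3 and 7 of 10, against 4.05% and 7.33%. PAC was named for the genes of RNA polymerases I and III, so its frequency here is not an independent observation. In the windows below, read 5′ to 3′ on the strand of the gene from the R64 reference of S288c (RefSeq), capitals mark the cores, a PAC core on the opposite strand reads CTCATC, and overlapping PAC cores appear as 1 run of capitals.
RPA190 (chrXV:960784-960830, plus strand): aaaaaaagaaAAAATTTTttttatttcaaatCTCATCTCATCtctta
RPA135 (chrXVI:581290-581341, minus strand): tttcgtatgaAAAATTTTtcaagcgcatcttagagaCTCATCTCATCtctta
RPA49 (chrXIV:182723-182763, minus strand): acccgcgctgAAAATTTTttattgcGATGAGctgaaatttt
RPA34 (chrX:140306-140342, plus strand): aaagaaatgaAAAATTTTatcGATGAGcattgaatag
RPA43 (chrXV:960321-960374, minus strand): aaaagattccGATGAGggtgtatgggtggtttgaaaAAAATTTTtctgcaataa
RPC19 (chrXIV:412634-412659, plus strand): attcacctgcGATGAGctggaaaaaa
RRN3 (chrXI:208033-208088, plus strand): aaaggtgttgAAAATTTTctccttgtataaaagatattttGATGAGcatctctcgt

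These windows show both the common arrangement and its exceptions. *RPA190* and *RPA135*, for the catalytic subunits, carried the PAC core in tandem, and a run of 17 bases starting with it was found in these 2 promoters and no other. The tandem core alone was in 77 promoters (1.28%). The cores lay 3 bases apart in *RPA34* and 7 in *RPA49*. In *RPA43* the order was turned, with PAC first and 20 bases between. *RPC19* held only PAC. *RPC40* and *RPA14* held both cores, 16 and 58 bases apart, and *RPA12* held neither. *RPA43* and *RPA190* are divergent neighbours on chromosome XV with 804 bases between their coding regions.

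Library totals were 7726935 to 17964847 counts in the strain experiment and 8174185 to 18253407 in the mutant experiment. Every replicate pair differed by more than sampling noise (chi-square per degree of freedom of at least 7.31). The deleted genes stood at no more than 0.467 (*MSN2*), 0.0778 (*MSN4*), 0.303 (*SKN7*) and 0.507 (*YAP1*) CPM (counts scaled to a common library size, with trimmed mean of M-values factors) in any library of the mutant that lacked them, against at least 75.7, 7.42, 48.8 and 77.5 CPM in wild-type YPS606. YPS606 ethanol replicate 3 stood apart from its group, with the lowest normalization factor (0.513) and the lowest mean rank correlation with its group (0.952). The title of 1 Y10 NaCl library (replicate 1) names ethanol, while its other labels name NaCl, and it was kept as NaCl. CPM are relative to all mRNA counted, and in bulk cultures fewer cells with an mRNA and less mRNA per cell cannot be told apart.

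Ethanol lowered every one of these mRNAs. Averaged over the 8 strains, all 10 genes fell (edgeR quasi-likelihood test, adjusted p under 0.01, where 40.8% of 6090 genes fell), with a median log2 fold change of -4.0 against 0.05 for all genes tested. The stalk gene *RPA43* changed most, with a log2 fold change of -5.47 ± 0.08 (SE), which is a 44.2-fold fall, and only 8 of the genes tested had a lower fold change. *RPA49* and *RPA34*, for the TFIIF-like pair, fell 29.3-fold and 26.2-fold. *RPA135* and *RPA190* fell 17.1-fold and 15.9-fold. *RPC19* fell 16.0-fold, *RPA12* 14.1-fold and *RPC40* 5.68-fold. The smallest changes were those of *RPA14*, the other stalk gene, which fell 3.53-fold, and *RRN3*, which fell 2.41-fold.

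The levels of single libraries show how far apart the conditions were. *RPA43* had 0.698 CPM in the lowest, 3.02 in the median and 32.3 in the highest of the 23 ethanol libraries, against 121, 157 and 216 CPM in the 24 unstressed libraries. *RPA190* had 24.4, 44.5 and 141 CPM after ethanol, against 486, 828.8 and 1252 CPM unstressed. *RRN3* had 18.3, 46.8 and 73.4 CPM after ethanol, against 68.2, 94.4 and 187 CPM unstressed. Across strains the ranges of *RPA43* and *RPA190* did not overlap. Those of *RRN3* overlapped only through the highest ethanol library, from YJM308 (73.4 CPM). In the other strains *RRN3* reached at most 57.4 CPM after ethanol (YPS163), below the lowest unstressed value of 68.2 CPM (DBY8268). Within each of the 8 strains, every ethanol library lay below every unstressed library for all 10 genes. The share of all genes that separated in this way is not given here. The test called all 80 combinations of gene and strain lower, where 31.3% of all genes and strains were. The lowest values rest on few reads: *RPA43* had 6 counts in M22 ethanol replicate 2, *RPA34* had 8 in YPS606 ethanol replicate 3 and *RPA12* had 17 in M1 ethanol replicate 2.

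**Figure D1:**
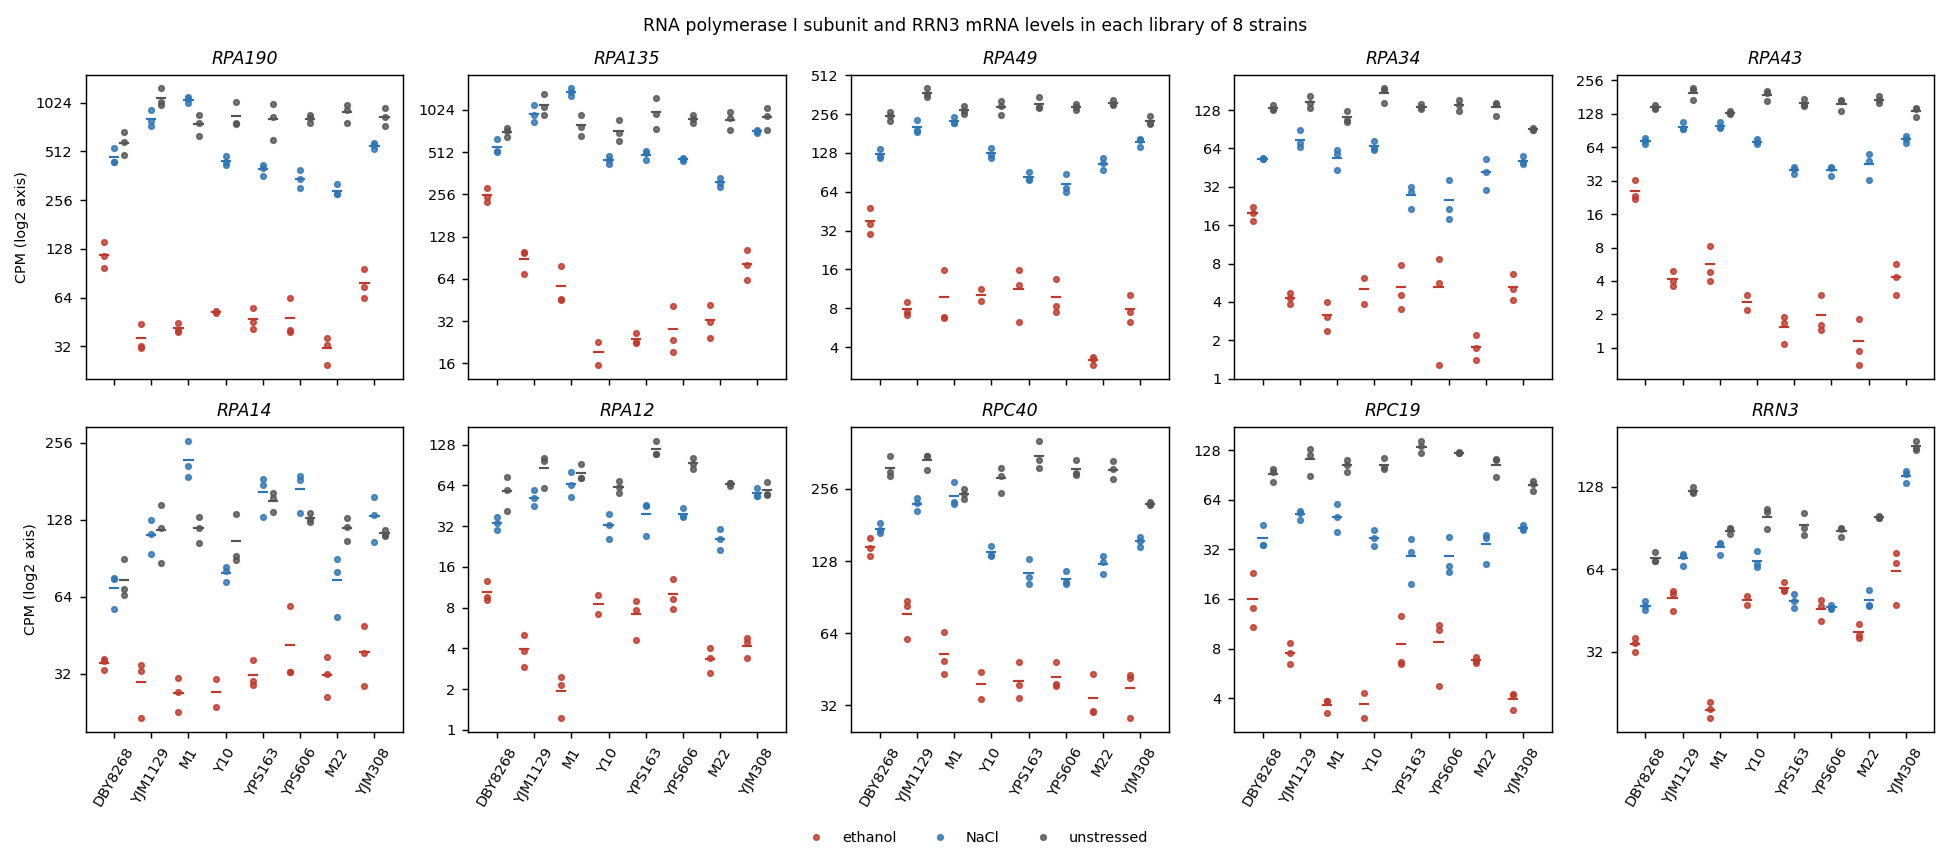
CPM on a log2 axis in each library of the 8 strains, after ethanol (red, left), after NaCl (blue) and unstressed (grey, right), with 1 panel per gene; points are libraries and short lines are group means. Ethanol libraries lie below unstressed libraries of the same strain in every panel, and for *RPA14* the NaCl and unstressed libraries overlap in 4 of 8 strains.

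Salt lowered the same genes less. In the mean of strains 9 of 10 fell (41.9% of all genes tested did), with a median of -0.90 on the log2 scale against -0.06 for all genes. *RPA34* fell 2.83-fold, *RPC19* 2.75-fold, *RPA43* 2.50-fold and *RPA49* 2.24-fold. *RPC40* fell 1.91-fold, *RPA12* 1.82-fold, *RPA190* 1.63-fold, *RRN3* 1.59-fold and *RPA135* 1.44-fold. *RPA14* was the gene not called, with a log2 fold change of 0.04 ± 0.07 (SE, adjusted p = 0.621) and an interval of -0.10 to 0.19. Its levels were 53.6, 120 and 260 CPM in the lowest, median and highest NaCl library, against 65.0, 119 and 163 CPM unstressed. Pooled over strains, the ranges of *RPA14* overlapped almost throughout. Within strains, all NaCl libraries lay below all unstressed libraries in 2 of 8 strains (Y10 and M22). They lay above in 2 (M1 and YPS606), so the mean combines changes in opposite directions.

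Within strains, 59 of 80 combinations of gene and strain were called lower after salt (23.3% of all were) and 2 higher (20.1%). M22 had all 10 genes lower (28.0% of all genes were), and 9 were lower in Y10 (26.5%), YPS163 (30.0%) and YPS606 (30.0%). DBY8268 and YJM1129 had 7 each (17.0% in both), and YJM308 had 6 (17.8%), of which none stayed called when replicate 2 was left out. YJM1129 had 3 called without replicate 1. M1 had 2 lower (*RPA34* and *RPC19*, where 19.9% of all genes were lower). Both higher calls were in M1 too, for *RPA135* and *RPA14* (18.3% were higher), and neither held without replicate 1. The order of the members differed between the stresses, since *RPA43* fell most with ethanol and *RPA34* and *RPC19* with salt.

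**Figure D2:**
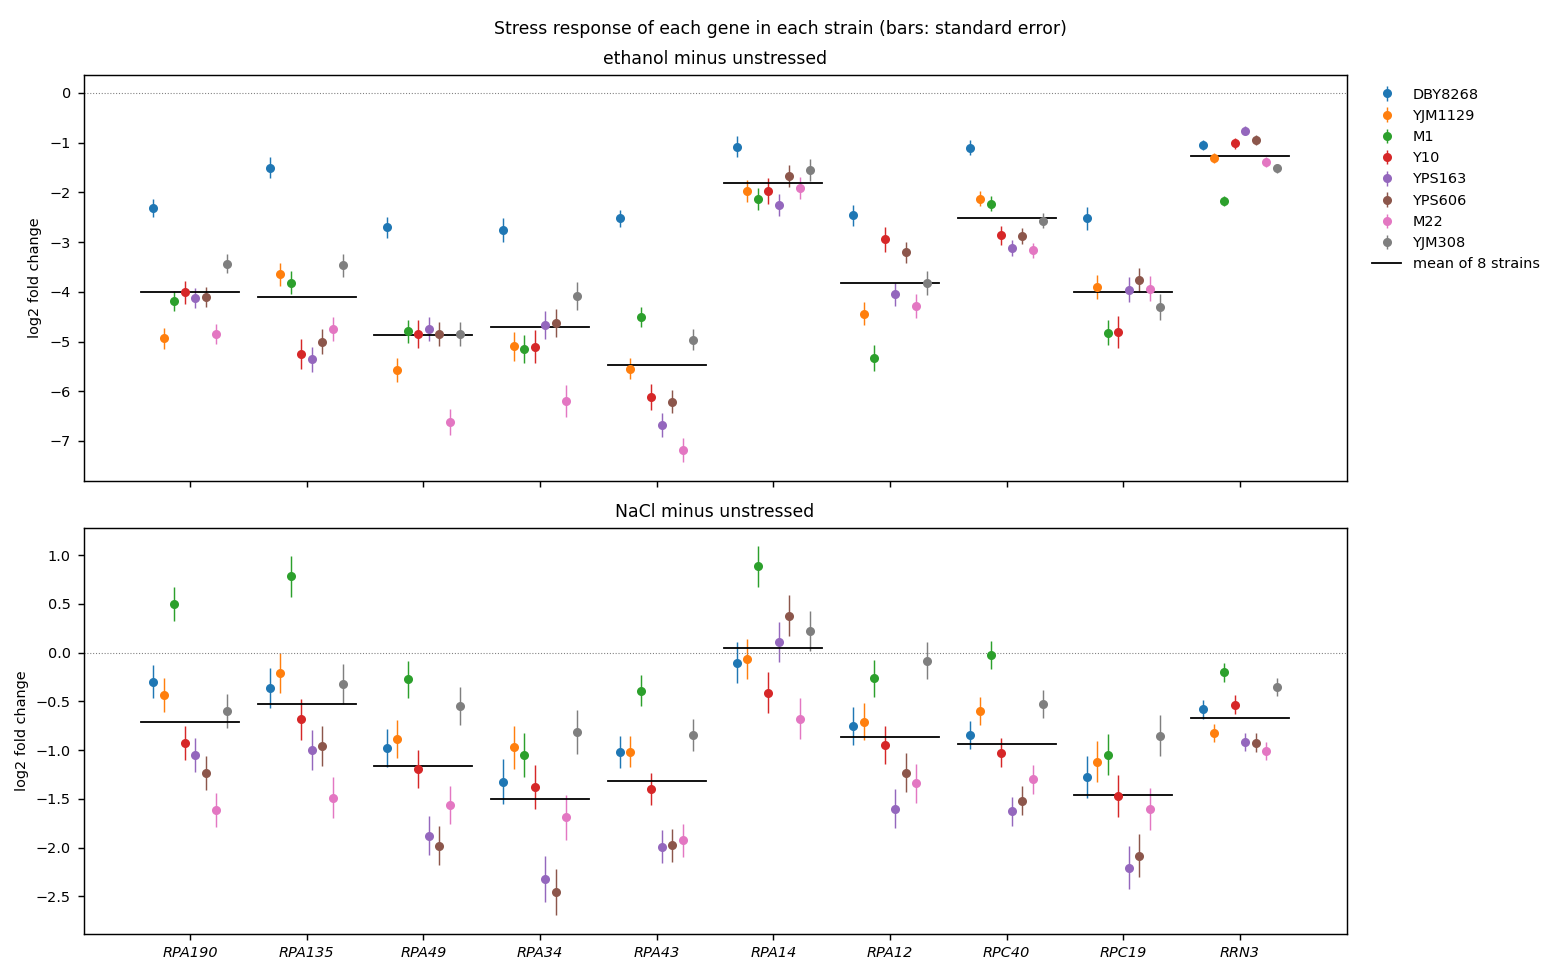
Log2 fold change of each gene in each strain, ethanol minus unstressed (top) and NaCl minus unstressed (bottom); points are strains, bars standard errors and black lines the mean of 8 strains. DBY8268 lies above the other 7 strains for 9 of the genes with ethanol (*RRN3* is the exception), and M1 lies highest for 7 of the genes with NaCl, YJM308 being highest for *RPA12*, *RPA34* and *RPC19*.

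Compared directly, ethanol-treated libraries were lower than NaCl-treated libraries for all 10 genes in the mean of strains (36.9% of all genes were lower). The difference was -4.15 ± 0.08 for *RPA43*, -3.71 ± 0.08 for *RPA49* and -0.60 ± 0.03 for *RRN3* on the log2 scale (SE). The treatments differed in agent and in length, which cannot be told apart here.

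The stalk genes *RPA43* and *RPA14* parted under both stresses, although their products form a heterodimer. The ratio of *RPA14* to *RPA43* counts within a library was higher after ethanol than unstressed in 23 of 23 cultures of the strain experiment (median change 4.11 on the log2 scale) and higher after salt in 24 of 24 (1.22). In the mutant experiment it was higher in 16 of 16 cultures with each stress (2.74 with ethanol, 1.496 with salt). The *RPA14* coding region (chrIV:769525-769938) shares 8 bases with that of YDR157W on the same strand, and the other 9 coding regions overlap no annotated gene. YDR157W took a median of 16.6% of the counts of both genes after ethanol (11.1 to 21.8% over the libraries), 16.2% after NaCl (9.36 to 21.2%) and 15.6% unstressed (8.09 to 23.8%). These ranges overlapped, and the part of shared reads in the *RPA14* values was not tested. The catalytic pair behaved otherwise: the ratio of *RPA190* to *RPA135* was higher after ethanol in 10 and lower in 13 of the 23 cultures (median change -0.07). The ratio of *RRN3* to *RPA190* was higher after ethanol in 23 of 23 cultures (3.09), and after salt in 14 of 24 (0.10).

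Per kilobase of coding sequence, the unstressed mRNAs of the 9 subunits were at like levels. The means over strains ran between 164 ± 24.7 CPM per kb for *RPA43* and 294 ± 44.0 CPM per kb for *RPC40* (SD between 8 strains), with *RPA190* at 166 ± 28.6 and *RPA135* at 242 ± 36.7. *RRN3* was lower, at 55.8 ± 17.8 CPM per kb. After ethanol the subunits spread over a wider range, between 6.03 ± 8.36 for *RPA43* and 79.3 ± 12.7 for *RPA14*. After ethanol *RRN3*, at 23.5 ± 7.14 CPM per kb, had a higher mean than every subunit gene except *RPA14* and *RPC40*. That mean lay within the spread between strains of *RPA135* (20.2 ± 21.4), *RPC19* (17.2 ± 9.54) and *RPA12* (16.4 ± 8.62).

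The size of the ethanol response differed between strains. Each strain was tested against the mean of the 8 strains (which includes it), a test of the difference itself: 14 of 80 combinations were called higher, meaning a smaller fall, and 17 lower, where 11.4% of all genes and strains were called in each direction. DBY8268 stood out with 9 of 10 genes higher (22.9% of all genes were called higher in DBY8268), and 8 or 9 were called with any replicate left out. The differences ran between 0.74 ± 0.20 for *RPA14* and 2.95 ± 0.17 for *RPA43* on the log2 scale. *RRN3* was not called in DBY8268 (0.22). Of the 10 genes for subunits of RNA polymerase III alone, 8 were also called higher in DBY8268 with ethanol and 1 lower. The study reports that the genes less repressed by ethanol in S288c were enriched for ribosome biogenesis. The smaller fall was therefore not particular to the genes described here.

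Single libraries show this for the stalk and the catalytic centre. *RPA43* was at 23.3, 21.95 and 32.3 CPM in DBY8268 after ethanol, against 142, 154 and 145 CPM unstressed. In M22 it was at 0.940, 0.698 and 1.82 CPM after ethanol, against 183, 171 and 159 CPM unstressed. All 3 ethanol libraries of DBY8268 lay above all 20 ethanol libraries of the other strains for *RPA43*, and the next highest was 8.18 CPM in M1. *RPA135* was at 247, 225 and 285 CPM in DBY8268 after ethanol, against 650, 765 and 726 CPM unstressed. In Y10 *RPA135* was at 15.5 and 22.8 CPM after ethanol, against 869, 613 and 697 CPM unstressed. DBY8268 was again above all other strains, with no overlap. Both genes were among those called, and the share of all genes that separated in this way is not given here.

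At the other end, M22 had 6 of 10 genes lower than the mean of strains with ethanol (10.7% of all genes were lower), led by *RPA49* (-1.75 ± 0.23), *RPA43* (-1.72 ± 0.23) and *RPA34* (-1.48 ± 0.29). The others were *RPA190* (-0.86), *RPC40* (-0.66) and *RPA135* (-0.65), and 4 to 6 genes were called with a replicate left out. *RPA49*, for a subunit of the TFIIF-like pair, was at 3.36, 3.26 and 2.90 CPM in M22 after ethanol, against 332, 303 and 305 CPM unstressed.

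The remaining strains had a few genes called each, and not in 1 direction. Where a strain had only 1 gene called in a direction, this was near the share of all genes called. In YPS163, *RPA135* (-1.26), *RPA43* (-1.22) and *RPC40* (-0.61) were lower and *RRN3* (0.51) higher, where 10.2% and 10.5% of all genes were called. The other oak strain, YPS606, had *RPA135* (-0.90) and *RPA43* (-0.74) lower and *RRN3* (0.33) higher (6.91% and 9.7%), and none of these calls held without replicate 1. Leaving out YPS606 ethanol replicate 3 gave 17 lower and 15 higher calls over all strains. In M1, *RPA12* (-1.52), *RRN3* (-0.90) and *RPC19* (-0.82) were lower and *RPA43* (0.96) higher (9.43% and 6.58%), and *RPA43* was not called without replicate 1. Y10 had *RPA135* lower (-1.14) and *RPA12* higher (0.87) (12.4% and 9.24%), and neither held without replicate 1, which left a lone Y10 ethanol library, assumed to vary like the other groups. YJM1129 had *RPA190* (-0.94) and *RPA49* (-0.70) lower (13.3%), and 1 gene was lower without replicate 1. YJM308 had *RPA190* higher (0.56, 9.34%), lost without replicate 1. *RRN3* in M1 was at 18.3, 20.9 and 19.7 CPM after ethanol, against 89.4, 85.7 and 90.1 CPM unstressed, and these were the 3 lowest ethanol libraries for that gene.

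With salt, 10 of 80 combinations were higher than the mean of strains (7.48% of all were) and 15 lower (7.97%). M1 had 8 of 10 genes higher (17.4% of all genes in M1), between 0.46 ± 0.09 for *RRN3* and 1.31 ± 0.20 for *RPA135*, and 6 to 8 were called with a replicate left out. *RPA34* and *RPC19* were not called in M1. Of the 10 genes for subunits of RNA polymerase III alone, 6 were also called higher in M1 with salt and 0 lower. *RPA190* was at 1102, 1073 and 1020 CPM in M1 after salt, against 765, 854 and 637 CPM unstressed. In M22 it was at 278, 320 and 277 CPM after salt, against 920, 985 and 767 CPM unstressed. The salt libraries of M1 thus lay above its unstressed libraries for *RPA190* (log2 fold change 0.50, adjusted p = 0.0143, not called), while those of M22 lay below.

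YPS163 had 6 genes lower than the mean of strains with salt (11.0% of all genes), M22 had 5 (11.1%) and YPS606 had 4 (8.03%). The *RPA34*, *RPA49*, *RPA43* and *RPC40* calls were common to both oak strains, with differences between -0.95 and -0.59, and YPS163 added *RPA12* (-0.73) and *RPC19* (-0.75). In M22 the genes were *RPA135* (-0.96), *RPA190* (-0.91), *RPA14* (-0.72), *RPA43* (-0.61) and *RRN3* (-0.34). These counts rest on all 3 replicates: they fell to 1 in YPS163 without replicate 2, 2 in M22 without replicate 1 and 0 in YPS606 without replicate 1. YJM308 had *RPA12* (0.78) and *RRN3* (0.31) higher (3.02%), both lost without replicate 1. DBY8268, YJM1129 and Y10 had 0 of 10 genes called by edgeR and by DESeq2, with 1, 3 and 1 genes at an unadjusted p under 0.05 (4.58%, 10.3% and 9.03% of all genes were called in either direction). DBY8268, which fell least with ethanol, was thus not distinguished from the mean with salt, where its differences ran between -0.14 and 0.41.

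Before stress fewer of these differences were called. Of 80 combinations, 5 were lower and 5 higher than the mean of strains (10.4% and 13.2% of all were). DBY8268 had *RPA14* (-0.62), *RRN3* (-0.53) and *RPA190* (-0.50) lower (12.5% of all genes), and 1 gene was lower without replicate 2. YJM1129 had *RPA190* (0.42) and *RRN3* (0.29) higher (12.5%), both lost without replicate 1. YPS163 had *RPA12* (0.65) and *RPA14* (0.41) higher (19.1%), and 1 gene was higher without replicate 1. YJM308 had *RPA34* (-0.54) and *RPC40* (-0.40) lower (11.8%), both lost without replicate 1, and *RRN3* higher by 0.82 ± 0.06 (15.4%). M1, M22, Y10 and YPS606 had 0 genes called by edgeR (19.0%, 14.2%, 18.6% and 26.6% of all genes in either direction), with 3, 0, 3 and 2 at an unadjusted p under 0.05 and 2, 0, 0 and 0 called by DESeq2.

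The *RRN3* difference of YJM308 was shared with its chromosome. *RRN3* was at 175, 187 and 176 CPM in unstressed YJM308, and at no more than 128 CPM in any unstressed library of the other 7 strains, so YJM308 did not overlap them. *RRN3* lies on chromosome XI, and the median difference of the 312 genes tested on that chromosome was 0.77 in YJM308, with a middle range of 0.60 to 0.99. Of these genes 178 had a smaller difference than *RRN3*, and 286 were called higher. The medians of the other chromosomes of YJM308 lay between -0.10 and 0.01. The 0.82 of *RRN3* was therefore close to the 0.77 of its chromosome.

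**Figure D3:**
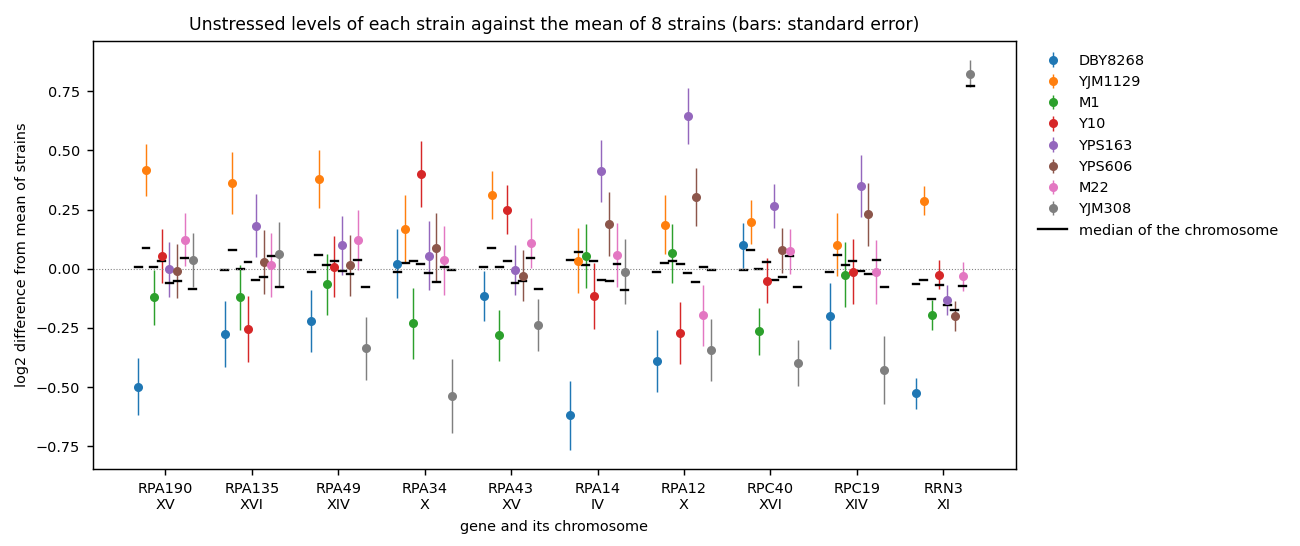
Log2 difference of each strain from the mean of 8 strains in unstressed libraries, by gene and its chromosome; points are strains, bars standard errors and black ticks the median difference of all genes tested on that chromosome in that strain. The point and the tick of YJM308 stand together at 0.82 and 0.77 for *RRN3*, and no other tick is above 0.10.

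The mutant experiment asked which transcription factors the responses depend on. All 40 combinations of gene and genotype fell with ethanol (35.7% of all genes and genotypes did), and 36 of 40 fell with salt (34.6%), the 4 others being *RPA14* in each genotype. Wild-type YPS606 fell by 4.89 ± 0.16 on the log2 scale for *RPA43* and by 0.89 ± 0.09 for *RRN3* with ethanol, where the strain experiment gave -6.21 and -0.94 for YPS606. The experiments were normalized and fitted apart, and the values are given side by side only.

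Loss of Msn2p and Msn4p was accompanied by a weaker ethanol response. In the *msn2*Δ *msn4*Δ mutant 7 of 10 genes had a higher fold change than in wild type (8.25% of all genes did), and none a lower one (9.36%). The differences were 1.05 ± 0.22 for *RPA43*, 0.87 ± 0.12 for *RPA135*, 0.76 ± 0.20 for *RPC19*, 0.71 ± 0.12 for *RPC40*, 0.66 ± 0.13 for *RPA190*, 0.61 ± 0.14 for *RPA49* and 0.58 ± 0.16 for *RPA12* on the log2 scale. *RPA34* had a difference of 0.61 ± 0.19 (adjusted p = 0.0141), *RPA14* of 0.10 ± 0.22 and *RRN3* of -0.22 ± 0.12, and none of these was called. The count was 4 without replicate 2 and 8 without replicate 4. *RPC19* was not called without replicate 1, 2 or 3, *RPA12* was not called without replicate 1 or 3, and *RPA43* and *RPA49* were not called without replicate 2. The genes still fell in the mutant, with log2 fold changes of -3.85 for *RPA43* and -2.82 for *RPA190*. Msn2p and Msn4p are known as activators, and whether they act on these genes, directly or not, was not tested.

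Values after ethanol are given for the catalytic pair and *RPA43*. *RPA190* was at 129, 138, 123 and 125 CPM in the *msn2*Δ *msn4*Δ mutant after ethanol, against 81.5, 73.2, 85.1 and 87.9 CPM in wild type after ethanol. *RPA135* was at 117, 136, 116 and 120 CPM in the mutant after ethanol, against 69.7, 57.7, 75.1 and 70.2 CPM in wild type. *RPA43* was at 12.1, 9.97, 11.2 and 5.36 CPM in the mutant after ethanol, against 5.13, 3.59, 4.11 and 5.31 CPM in wild type. The groups did not overlap for any of these 3 genes, although the lowest *RPA43* library of the mutant was close to the highest of wild type. All 3 were among the genes called, and the share of all genes that separated in this way is not given here. Unstressed, *RPA190* was at 921, 961, 845 and 909 CPM in the mutant, against 858, 861, 961 and 982 CPM in wild type, and these overlapped.

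With salt, the *msn2*Δ *msn4*Δ mutant had 0 of 10 genes called by edgeR (5.97% of all genes were, in either direction) and 0 by DESeq2, with 3 at an unadjusted p under 0.05. The estimates lay between -0.34 and 0.09. The difference between the ethanol and the salt result in this mutant was itself not tested.

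In the *skn7*Δ mutant calls were found with salt and not with ethanol, a contrast between stresses that was not tested. Its salt response was weaker in 4 of 10 genes (8.39% of all genes were higher): *RPA190* by 0.68 ± 0.13, *RPA43* by 0.61 ± 0.18, *RPA135* by 0.51 ± 0.12 and *RPC40* by 0.51 ± 0.12 on the log2 scale. *RPA190* was at 561, 573, 644 and 546 CPM in the mutant after salt, against 436, 361, 439 and 414 CPM in wild type after salt. *RPA135* was at 667, 649, 822 and 710 CPM in the mutant after salt, against 538, 455, 600 and 567 CPM in wild type. Neither gene overlapped between the genotypes. Both were among the genes called, and the share of all genes that separated in this way is not given here. The count was 2 without replicate 2, 2 without replicate 3 and 1 without replicate 4. With ethanol 0 of 10 genes were called in *skn7*Δ by edgeR (4.47% of all genes were, in either direction) and by DESeq2, with 5 at an unadjusted p under 0.05 and estimates between -0.15 and 0.72.

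In *yap1*Δ, 0 of 10 genes were called with ethanol by edgeR (3.98% of all genes were, in either direction) and by DESeq2, with 2 at an unadjusted p under 0.05 and estimates between -0.30 and 0.26. With salt *RRN3* fell further than in wild type (-0.50 ± 0.12, where 4.91% of all genes were lower). It was at 29.3, 37.6, 35.7 and 36.7 CPM in *yap1*Δ after salt, against 47.5, 45.4, 53.6 and 46.8 CPM in wild type after salt. This call did not hold without replicate 1 or without replicate 3. Unstressed, 0 of 30 combinations of gene and mutant were called by edgeR (1.42% of all genes and mutants were lower and 2.16% higher) or by DESeq2, with 4 at an unadjusted p under 0.05, and the estimates lay between -0.26 and 0.09.

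**Figure D4:**
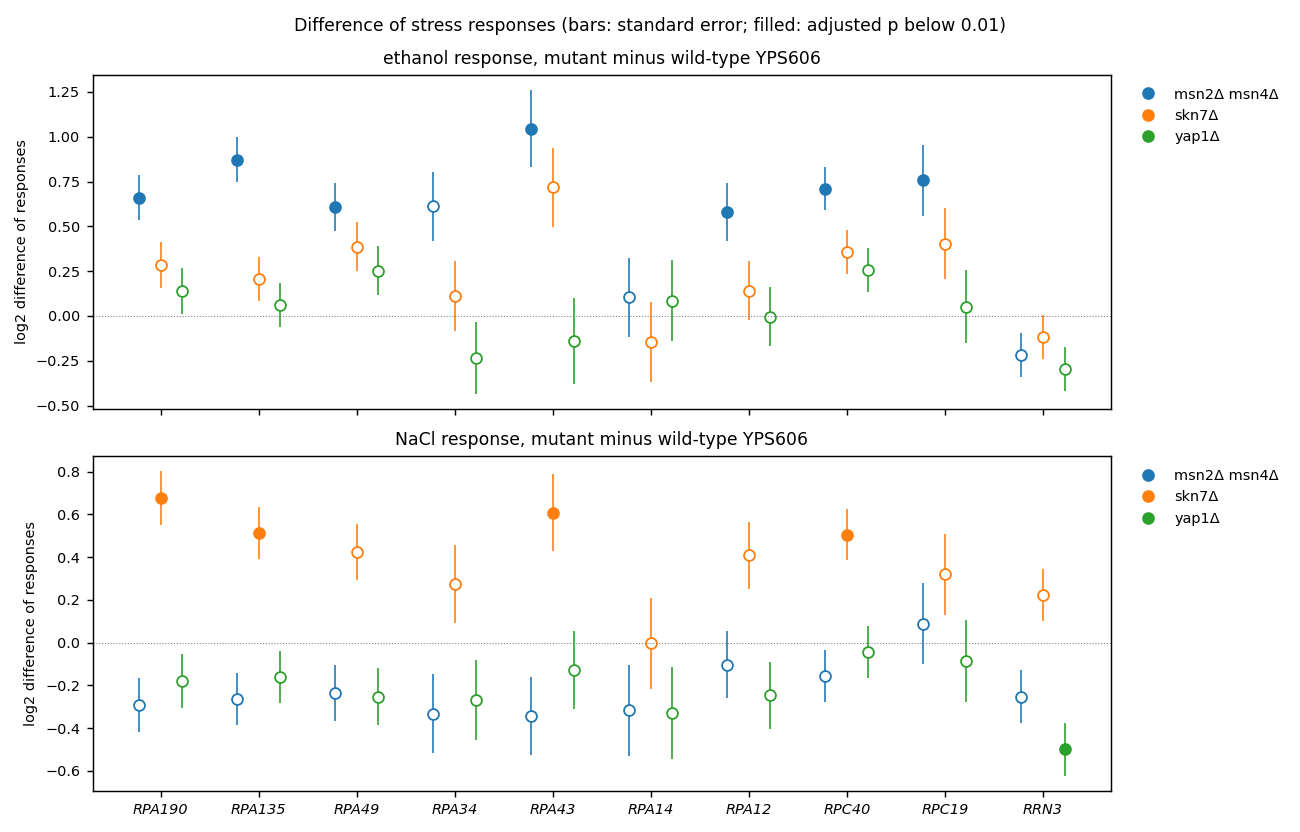
Difference of the stress response between each mutant and wild-type YPS606 on the log2 scale, for ethanol (top) and NaCl (bottom); bars are standard errors, and filled points have an adjusted p below 0.01. Filled points are 7 of the *msn2*Δ *msn4*Δ mutant with ethanol, and 4 of *skn7*Δ and 1 of *yap1*Δ with NaCl.

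Genes of the other nuclear RNA polymerases place these values. With ethanol 40.8% of all genes fell. The 5 subunit genes common to all 3 enzymes all fell with ethanol (median -2.19), among them *RPO26* (-2.62), *RPB5* (-2.36) and *RPC10* (-2.19). The 10 genes for subunits of RNA polymerase III alone also all fell, with a median of -2.43, led by *RPC82* (-3.29), *RPC53* (-2.93) and *RET1* (-2.73), the last of which encodes a catalytic subunit. Of the 7 genes particular to RNA polymerase II, 5 fell and 2, *RPB4* and *RPB7*, were not called, with a median of -0.45 and the largest falls in *RPB3* (-1.08), *RPB2* (-0.93) and *RPB9* (-0.75). The median of the RNA polymerase I genes, -4.0, was lower than that of each of these lists, without a test of the lists themselves.

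After salt the lists were closer together. All 5 common subunit genes fell (median -1.20), as did all 10 of RNA polymerase III (median -1.0, with *RPC31* at -1.62 and *RPC25* at -1.51). Of the 7 RNA polymerase II genes 4 fell (41.9% of all genes did), with a median of -0.31. *RPO21* (0.24) and *RPB7* (0.20) rose (33.7% of all genes did), both chosen after their values were seen. The RNA polymerase I median was -0.90. The PAC core was in 8 of 10 promoters of RNA polymerase III genes, 0 of 5 of the common subunit genes and 0 of 7 of RNA polymerase II. The RRPE core was in 5 of 10, 2 of 5 and 2 of 7. Of 13 genes for other factors of rDNA transcription, 7 held the PAC core and 3 the RRPE core. Whether the cores bear on the falls of these lists was not tested.

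**Figure D5:**
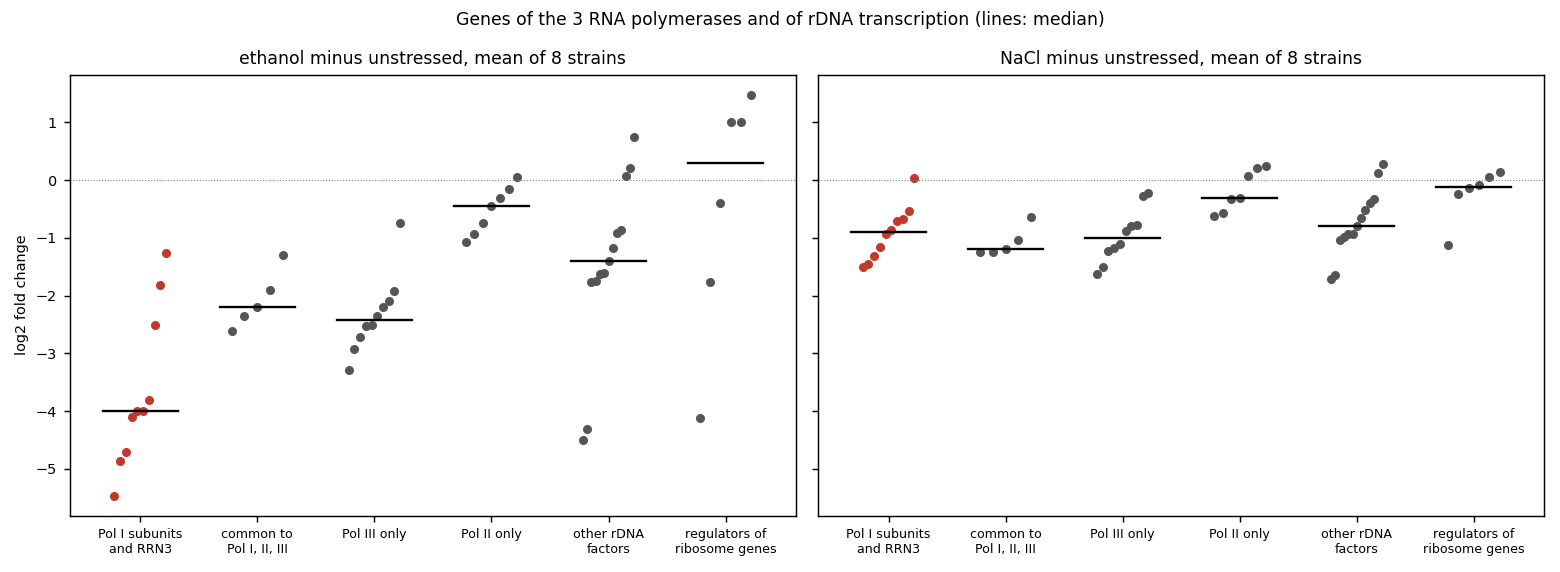
Log2 fold change in the mean of 8 strains, ethanol minus unstressed (left) and NaCl minus unstressed (right), for RNA polymerase I genes (red) and 5 other lists (grey); points are genes and lines medians. With ethanol the RNA polymerase I median is -4.0, below the -2.43 of RNA polymerase III and the -0.45 of RNA polymerase II. With NaCl the first 3 medians lie between -1.20 and -0.90, and that of RNA polymerase II is -0.31.

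Other factors of rDNA transcription were mixed. Of 13 genes, 10 fell with ethanol (40.8% of all genes fell) and 2 rose (42.4% of all genes rose), with a median of -1.39. The largest falls were those of *RRN11*, for a core factor subunit (-4.50), *RNT1*, for the RNase III that cuts the primary transcript (-4.31), and *RRN7*, for another core factor subunit (-1.76). The genes that rose, named after their values were seen, were *HMO1*, for an HMG-box protein of rDNA chromatin (0.74), and *RRN10*, for a subunit of the upstream activating factor (0.20). Of the genes for regulators of the regulon, *TOD6* fell (-4.13) and *DOT6* rose (1.00) with ethanol, although both products bind PAC as repressors. *STB3*, for the RRPE-binding protein, rose (1.00), as did *MAF1*, for the repressor of RNA polymerase III (1.48), and the kinase gene *SCH9* fell (-1.76). With salt *TOD6* fell (-1.13) and *STB3* rose slightly (0.15), and *DOT6* was not called (0.06).

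Over the 24 groups of strain and condition, the members followed each other closely, except *RRN3* and, less so, *RPA14*. Pearson correlations of group means of log2 CPM were between 0.89 and 0.99 for all pairs without these genes, the highest being that of *RPA34* and *RPA49*. Pairs with *RPA14* ran between 0.64 and 0.91, and pairs with *RRN3* between 0.64 and 0.75. The genes whose pattern was most like the mean of the 10 members were *NOG2* (0.997), *RRP5* (0.996), *ARX1* (0.995), *REI1* (0.995) and *NOP4* (0.994), all known for roles in ribosome assembly. Those most like *RRN3* were *GCN3* (0.920), *NUP100* (0.918) and *NUP133* (0.869), for a subunit of the translation factor eIF2B and for nuclear pore proteins, and all 3 lie on chromosome XI with *RRN3*. These correlations describe groups that share a stress response and normalization, and carry no test.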

How the data were processed

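RNA was polyA-selected and sequenced as single-end reads, trimmed with Trimmomatic, aligned with STAR (2.6.1) to strain-specific references made from S288c, and summarized by the authors with RSEM (1.3.1) into the deposited values, expected counts per gene, for 119 libraries (6685 genes). Whether counting used strand is not given in the sources used here. Expected counts were rounded. With edgeR 4.0.16 in R 4.3.3, TMM normalization and quasi-likelihood tests (edgeR 3 style) were run for each experiment on genes whose average reached 1 CPM in any group (6090 and 5748 genes), with strain or genotype and condition as 1 factor and the replicate number as a block, because the study's methods place the libraries of a number in 1 construction block and lane. Residuals of different cultures correlated at 0.06 and 0.07 with the same number and at -0.03 and -0.02 with other numbers. P-values were adjusted (Benjamini-Hochberg) over all genes and called at 0.01. The script was tested on simulated data. Alternatives were other normalization (DESeq2 1.42.0 size factors), the DESeq2 test, filters, thresholds, blocks, the current edgeR method and left-out libraries. CPM were computed with the TMM factors, log2 fold changes and their SEs come from the fit, SDs are between strain means, and replicates were separate cultures. Of 6685 genes, 5988 matched RefSeq R64 by systematic name. All 10 members were named, with up to 3 genes of every other list by size of change, the PAC and RRPE binding factors, and the genes most like the members. The members and lists were chosen with earlier results of these data known.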

Additional observations from a re-analysis of the deposited data

Results flagged for a closer look

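Differences between strains in the ethanol response were found by a test of the difference itself (edgeR, adjusted p under 0.01) against the mean of strains in 9 of 10 genes in DBY8268, 6 in M22, 4 in M1, 4 in YPS163, 3 in YPS606, 2 in YJM1129, 2 in Y10 and 1 in YJM308. Over all genes and strains, 11.4% were called in each direction. The counts in YJM1129, Y10 and YJM308 were near the shares of all genes called there. These were 13.3% lower in YJM1129, 12.4% lower and 9.24% higher in Y10, and 9.34% higher in YJM308. For the salt response, differences were found in 8 genes in M1, 6 in YPS163, 5 in M22, 4 in YPS606 and 2 in YJM308. Over all genes and strains, 7.97% were lower and 7.48% higher with salt. Against wild-type YPS606, the *msn2*Δ *msn4*Δ mutant differed in 7 genes with ethanol (8.25% of all genes were higher). With salt *skn7*Δ differed in 4 (8.39% higher) and *yap1*Δ in 1 (4.91% lower).

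In the mutant experiment, 4 of 120 groups of 4 libraries held 1 library far from the others (Dixon's test), where chance gives about 1 in 20. These were *RPA43* in unstressed *msn2*Δ *msn4*Δ replicate 2 (125 CPM, the lowest of its group), *RPA190* in *skn7*Δ ethanol replicate 2 (97.7 CPM, the highest), *RRN3* in unstressed *skn7*Δ replicate 1 (83.0 CPM, the highest) and *RPA14* in *yap1*Δ ethanol replicate 2 (28.8 CPM, the highest). The cause was not tested.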

How the results depend on the processing

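The counts for the ethanol and salt means, the ethanol response within strains and genotypes, ethanol against salt, and unstressed mutants moved by less than 1.5 times under every alternative. Without the replicate block, or with the culture as the block, no count moved by more than 1.5 times (within strains 80 were lower with ethanol and 59 with salt in each of these fits). At a false discovery rate of 0.05 the unstressed strain calls were 13 lower and 12 higher, against 5 and 5, and with a 1.5-fold limit 1 and 2. That limit left 0 lower and 2 higher calls for the salt responses of mutants, against 1 and 4. With 1 replicate number left out at a time, salt calls within strains were 0 to 2 higher, ethanol differences between strains 10 to 13 lower and 9 to 12 higher, salt differences 5 to 7 lower and 6 to 9 higher, and unstressed differences 2 to 4 lower and 2 higher. Mutant differences were 4 to 8 higher with ethanol, and 0 to 1 lower and 1 to 4 higher with salt. *RPA14* in the mean salt response, never called, was -0.021 without replicate 1 and ran up to 0.20 with another replicate left out, against 0.04. Leaving out YPS606 ethanol replicate 3, chosen after seeing the data, or Y10 NaCl replicate 1 moved no count by more than 1.5 times (without the YPS606 library, salt calls within strains were 3 higher, ethanol differences 17 lower and 15 higher, salt differences 16 lower and 10 higher, and unstressed differences 7 lower and 6 higher). Size factors in place of TMM moved the median of all genes by up to 0.11 (YPS606 with salt). The cause of lost calls was not tested beyond the fewer libraries. Low counts limit *RPA43*, *RPA34* and *RPA12* after ethanol.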
